A study of Mus musculus with 4 samples.

Results

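The glutathione peroxidases and glutathione transferases were examined in the epididymal white adipose tissue of mice, the fat pad that lies against the epididymis. Members were the protein-coding genes whose symbols begin with Gpx, Gsta, Gstk, Gstm, Gsto, Gstp, Gstt, Gstz or Mgst followed by a digit. That rule found 32 genes among the 39179 in the deposited table, and 28 of them reached the mean normalized count of 10 needed for testing. There were 2 libraries from wild-type mice (WT, Nck2+/+) and 2 from Nck2 mutant mice (KO, Nck2-/-), all from the same tissue and all on a mixed genetic background. Nck2 is a signalling adaptor built of SH2 and SH3 domains. The labels give no age, and do not say which part of Nck2 was altered, in which cells, or whether the replicates of a genotype came from separate animals. The p-values therefore measure the spread between these libraries only, which may be technical.

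Glutathione is the main small thiol of the cell. Glutathione peroxidases use it to reduce hydrogen peroxide and lipid hydroperoxides, and glutathione transferases join it to reactive electrophiles such as aldehydes from oxidised lipid and many foreign compounds. The transferases form cytosolic classes named by Greek letters (alpha, mu, omega, pi, theta, zeta), a kappa class of mitochondria and peroxisomes, and the unrelated membrane-bound microsomal enzymes (Mgst) of the MAPEG family. Mature adipocytes carry peroxidases and transferases, and the epididymal epithelium secretes peroxidases that act around maturing sperm. Gpx5 is the classic member of that secreted epididymal set.

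The peroxidases differ at the codon of the residue that attacks the peroxide, which sets the selenium-dependent enzymes apart from Gpx5 and its relatives. The coding stretch around it is shown for the 8 peroxidases 5′ to 3′ from the GENCODE M21 transcripts (GRCm38), with the catalytic codon in capitals. TGA is read as selenocysteine in these messages, whereas TGC and TGT encode cysteine.
Gpx1: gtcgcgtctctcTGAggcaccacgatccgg
Gpx2: gtggcgtcactcTGAggaacaactacccgg
Gpx3: gtagccagctacTGAggtctgacagaccaa
Gpx4: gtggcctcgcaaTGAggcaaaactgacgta
Gpx5: gtggctacctatTGCggtctgacaatccag
Gpx6: gtggcatccttcTGTggcctgacagctacg
Gpx7: gtagctagcgaaTGTggcttcacagaccag
Gpx8: gtggctagtgacTGCcgcttcacagacaag
The annotation marked a selenocysteine in Gpx1, Gpx2, Gpx3 and Gpx4 and in none of the other 4. The cysteine codon was located in Gpx5 to Gpx8 by aligning each translated coding sequence with that of Gpx3. Selenocysteine was read as cysteine in these alignments, so the catalytic position counted as identical. Gpx5 and Gpx6 were the closest to Gpx3, with 67.4% and 68.2% identical residues over 215 and 217 aligned positions. Gpx1 was at 53.6% and Gpx4 at 33.5%.

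The libraries held 31831904 to 37980391 reads assigned to genes, and values below are the deposited normalized counts. Nck2 itself was at 1279 and 1667 in the WT pair and 1076 and 947 in the KO pair (log2 fold change -0.53, SE 0.16, limma adjusted p = 0.0509). It passed with DESeq2 (adjusted p = 0.0184), with a pseudocount of 5 (0.0495) and in the authors' deposited table (0.0208), and in no other alternative. Since the altered part of the gene is not stated, this total does not check the genotype labels. Marker genes of other tissues differed strongly between the groups. Of 25 male tract epithelium markers 18 were tested, 13 fell and 0 rose, with a median of -8.20, and the list took 3.52% and 4.44% of WT reads against 0.00133% and 0.000909% of KO reads. In KO, 12 of those 25 had 0 reads, and Crisp1, which encodes an epididymal sperm-coating protein, was at 343811 and 334537 in the WT pair against 108 and 93.7 in the KO pair. Smooth muscle markers fell in 11 of 12 (median -4.51) and took 1.74% and 2.36% of WT reads against 0.0901% and 0.102% of KO reads. Mature adipocyte markers rose in 17 of 21 (median 1.68), from 2.92% and 1.99% of WT reads to 6.496% and 6.91% of KO reads, and macrophage markers rose in 14 of 14 (median 1.04). General epithelium markers fell in 11 of 12 (median -7.66), and fibroblast and progenitor markers rose in 4 of 12 (median 0.17). Lpl, the mature adipocyte marker with the highest mean, was at 198119 and 117847 in the WT pair and 431375 and 553889 in the KO pair. The part that this difference in tissue content had in the results below was not tested. In bulk tissue, fewer cells of a type and less RNA per cell cannot be told apart.

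Of the 28 tested members 12 were higher in KO, 7 were lower and 9 did not pass an adjusted p of 0.05 in limma. The same test called 46.7% of all 16710 tested genes, 22.4% higher and 24.4% lower. The median log2 fold change was 0.23 over the members and -0.01 over all tested genes. Both KO libraries lay above both WT libraries for 14 members and below them for 11, where 38.9% and 40.6% of all tested genes did so. In the authors' deposited table, 12 members were higher and 9 lower at an adjusted p under 0.05, where 18.8% and 21.7% of all genes with an adjusted p were called. All 19 members called by limma were called there in the same direction. Leaving out WT replicate 2 reduced the counts both among members and among all tested genes, in a fit with fewer degrees of freedom.

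**Figure D1:**
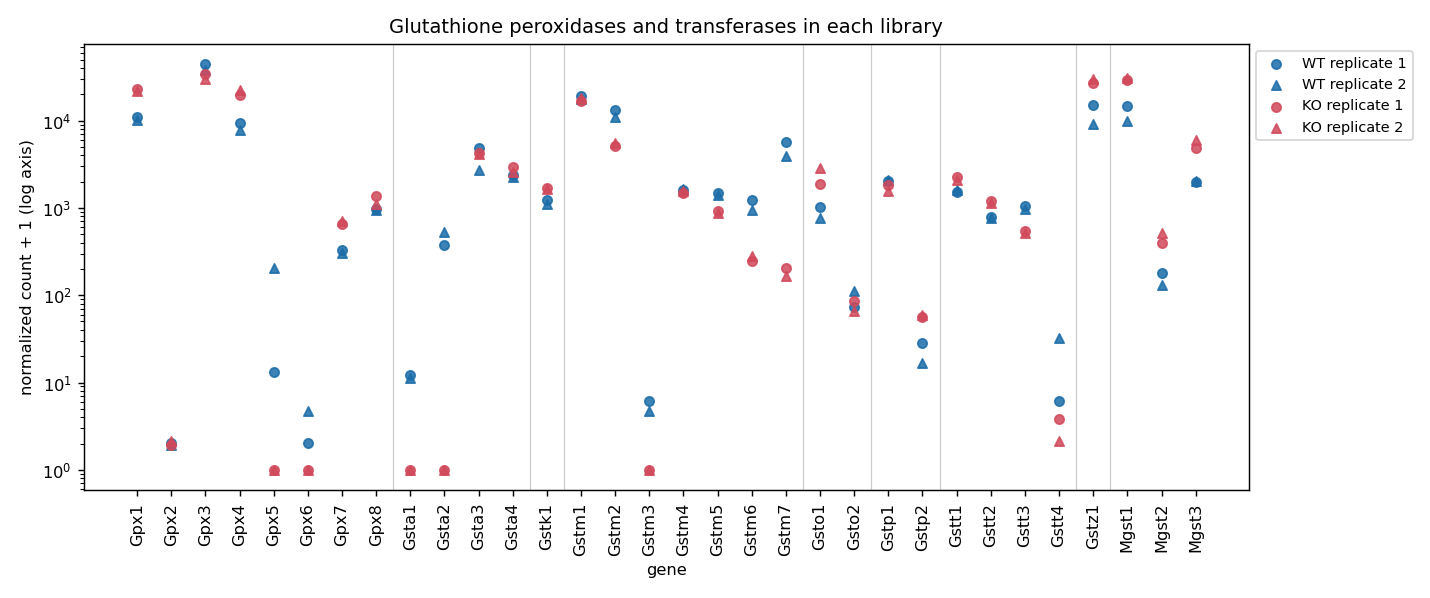
Normalized count + 1 (log axis) of each of the 32 members in each library, with WT in blue, KO in red, replicate 1 as circles and replicate 2 as triangles. Gpx5, Gsta1, Gsta2, Gstm3 and Gpx6 have 0 reads in both KO libraries, and Gstm7 lies at 5730 and 3907 in the WT pair against 201 and 165 in the KO pair.

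Per kilobase of the principal transcript, Gpx3 was the most abundant member in WT, at 27772 and 23862 normalized counts per kilobase, followed by Gstm1 at 14957 and 13878. In KO the order was different, and Mgst1, at 25146 and 26543, was above Gpx3, at 21588 and 18878. Gpx4 was at 20264 and 23542 and Gpx1 at 21434 and 20417 per kilobase in KO, so these 2 and Gpx3 had overlapping levels there. The order is a description, since level per kilobase depends on the transcript chosen.

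Among the 4 selenocysteine peroxidases Gpx1 and Gpx4 rose, Gpx3 did not pass and Gpx2 was not tested. Gpx1 (ENSMUSG00000063856, GRCm38 chromosome 9, 108338903 to 108340343), the abundant cytosolic enzyme that removes hydrogen peroxide, was at 11046 and 10277 in the WT pair and 22977 and 21887 in the KO pair. Both KO libraries were above both WT libraries, and the log2 fold change was 1.07 (SE 0.088, limma adjusted p = 0.0021). Gpx4 (chromosome 10, 80047166 to 80056439), the enzyme that reduces lipid hydroperoxides inside membranes and so restrains ferroptosis, was at 9442 and 7885 in the WT pair and 19434 and 22576 in the KO pair, again with no overlap. It rose by 1.28 (SE 0.14, limma adjusted p = 0.0037, or 0.0604 without WT replicate 2). Processed copies of Gpx4 exist, and 34.7% of the 50-base stretches of its transcripts also occur in another annotated gene, mainly the pseudogene Gpx4-ps2, so its count is uncertain. The mature adipocyte median of 1.68 and the macrophage median of 1.04 stand in the same comparison.

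Gpx3 (chromosome 11, 54902453 to 54910377), which encodes the peroxidase secreted into plasma, was at 44268 and 38036 in the WT pair and 34412 and 30091 in the KO pair. The KO libraries were the lower pair, by -0.35 (SE 0.15), and the difference did not pass (limma adjusted p = 0.121). With DESeq2 it passed, at -0.36 (adjusted p = 0.0288), and the authors' deposited table gives an adjusted p of 0.0409. Gpx2, the gut epithelial enzyme, had a mean of 1.0 normalized count over the 4 libraries and was not tested.

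The cysteine peroxidases of the endoplasmic reticulum, where they take up peroxide made during protein folding, were both measured. Gpx7 was at 332 and 301 in the WT pair and 661 and 713 in the KO pair, without overlap, and rose by 1.11 (SE 0.10, limma adjusted p = 0.0028, or 0.0538 without WT replicate 2). Gpx8 was at 968 and 943 in the WT pair and 1373 and 1116 in the KO pair, a difference of 0.37 (SE 0.12) that did not pass (limma adjusted p = 0.0643). Without KO replicate 2 it was 0.52 with an adjusted p of 0.0263.

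Gpx5 (ENSMUSG00000004344, chromosome 13, 21286429 to 21292731), the androgen-dependent peroxidase secreted by the epididymis, was found in the WT libraries only, and very unevenly. WT replicate 1 held 12 reads and WT replicate 2 held 222, and both KO libraries held 0. In normalized counts these were 12.2 and 207 in WT, a ratio of 16.9 between the replicates. Against a floor of 3 reads over both KO libraries, the WT mean was at least 71.6-fold higher. That limit rests on WT replicate 2, and WT replicate 1 alone was at least 8.002-fold higher. The fitted log2 fold change of -5.71 (SE 1.41) passed in limma (adjusted p = 0.0323), but this depended on the settings. A pseudocount of 5 gave an adjusted p of 0.0755 and edgeR one of 0.0812. Dropping KO replicate 1 or KO replicate 2 gave 0.0941 or 0.0968, and with WT replicate 2 dropped the gene was under the filter. Its neighbour Gpx6, 19.4 kb away with 0 protein-coding genes between, encodes another secreted peroxidase. It had a mean of 1.19 normalized counts, was at 1.02 and 3.72 in WT and at 0 in KO, and was not tested.

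The uneven Gpx5 level within WT had counterparts among the male tract markers. Of the 25, 12 were higher in WT replicate 2 and 13 in WT replicate 1. Lcn8 and Lcn9, lipocalins made in the proximal epididymis, had 25 and 24 reads in WT replicate 2 against 1 and 0 in WT replicate 1. Teddm1 and Cst11 had 12 and 16 reads against 1 and 0, and Spag11b had 48 against 6. The seminal vesicle genes Svs2, Svs4, Svs5 and Svs6 went the other way, with 11861, 11518, 10940 and 1448 reads in WT replicate 1 against 68, 7, 1 and 1 in WT replicate 2. Lcn5 was also higher in WT replicate 1, at 1825 against 94.9 normalized counts, and Crisp1, at a ratio of 0.973, was nearly equal. Ros1 (149 against 71 reads), Spag11a (181 against 66), Rnase9 (4417 against 2498) and Adam7 (9734 against 6548) were higher in WT replicate 1 too. The 2 WT libraries therefore held different mixtures of male tract transcripts. Gpx5 was high in the library that held more Lcn8 and Lcn9 but less Lcn5 and Spag11a. These are 2 libraries, and the relation was not tested.

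**Figure D2:**
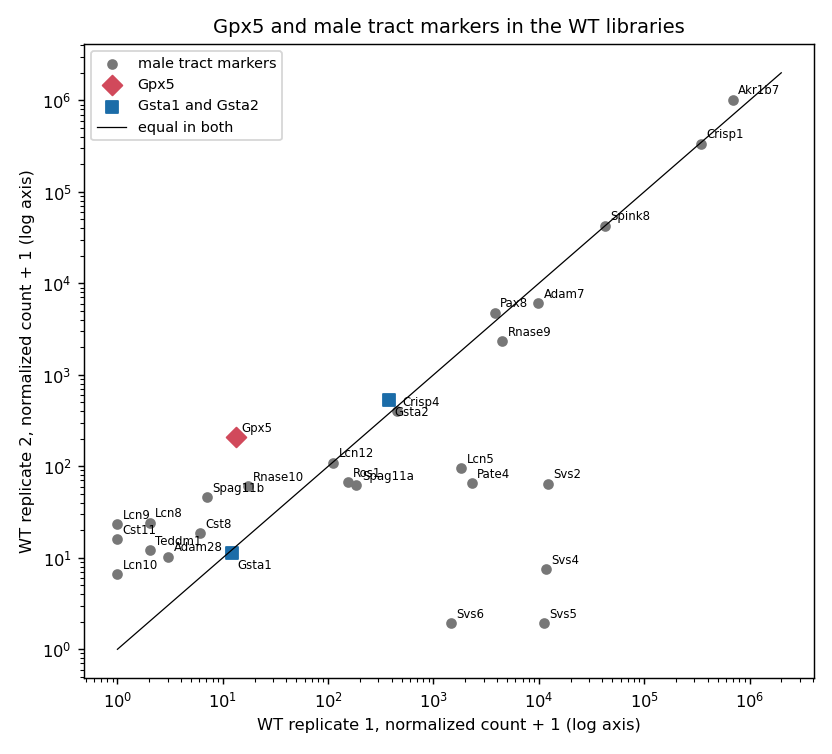
Male tract markers (grey), Gpx5 (red diamond) and Gsta1 and Gsta2 (blue squares) in WT replicate 1 (horizontal) and WT replicate 2 (vertical), both as normalized count + 1 on log axes, with a line where both are equal. Gpx5 lies above the line, at 12.2 and 207, on the side of Lcn8 and Lcn9, whereas Gsta2 lies near it, at 379 and 527. Lcn5 and Spag11a lie below the line.

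The alpha transferases, which conjugate lipid aldehydes and also act as peroxidases on lipid hydroperoxides, included 1 gene that fell and 2 tested genes that did not pass. Gsta2 (ENSMUSG00000057933, chromosome 9, 78331018 to 78355788) was at 379 and 527 in WT and had 0 reads in both KO libraries. The WT mean was at least 296-fold higher than a floor of 3 reads over both KO libraries, and the fitted change of -8.81 (SE 0.34, limma adjusted p = 0.00064) passed in each of the 14 alternatives. Gsta1, on the same chromosome, was at 11.2 and 10.2 in WT and at 0 in KO, which makes WT at least 7.02-fold higher. Its mean of 5.36 left it untested in the main limma fit. For Gsta1 the authors' deposited table gives -3.77 (adjusted p = 0.0104). Of the 50-base stretches of Gsta1 90.5% occur in another gene (75.7% in Gm3776), and of those of Gsta2 49.8% (36% in Gsta1). The division of reads among these genes is therefore uncertain. Gsta2 differed 1.39-fold between the WT libraries, whereas Gpx5 differed 16.9-fold, and both had 0 KO reads.

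Gsta4, which is known for conjugating the lipid peroxidation product 4-hydroxynonenal, lies on the same chromosome and was expressed in every library. It was at 2401 and 2239 in the WT pair and 2966 and 2592 in the KO pair (0.26, SE 0.093, limma adjusted p = 0.0849). Gsta3 was at 4837 and 2696 in the WT pair and 4230 and 4132 in the KO pair, so that the KO libraries lay between the WT libraries. Its difference of 0.21 (SE 0.29, limma adjusted p = 0.582) did not pass. It was -0.21 when WT replicate 2 was dropped and 0.63 (adjusted p = 0.0388) when WT replicate 1 was.

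The mu transferases, which conjugate aromatic and epoxide compounds, fell or did not pass. Of 6 tested, 4 fell and 0 rose, where 24.4% of all tested genes fell and 22.4% rose. Summed over the class, the mu genes took 0.131% and 0.116% of WT reads and 0.0699% and 0.0700% of KO reads. All 7 lie in a cluster on chromosome 3, from Gstm5 at 107895821 to Gstm4 at 108044894, with 0 other protein-coding genes between neighbours. Gstm7 (ENSMUSG00000004035, 107926334 to 107931817) was at 5730 and 3907 in the WT pair and 201 and 165 in the KO pair, which is 26.3-fold lower in KO by the group means. It fell by 4.69 on the log2 scale (SE 0.22, limma adjusted p = 0.00079). The smooth muscle median was -4.51 in the same comparison, with markers from -9.63 to -0.39. The male tract and general epithelium medians were lower, at -8.20 and -7.66. Within WT, Gstm7 was higher in replicate 1, whereas the summed smooth muscle markers were higher in replicate 2 (563920 in replicate 1 and 746628 in replicate 2). The part that muscle or epithelial content had in the fall of Gstm7 was not tested. Of the 50-base stretches of Gstm7 0.532% occur in another gene. Its neighbour Gstm6 was at 1223 and 944 in the WT pair and 248 and 280 in the KO pair, and fell by 2.02 (SE 0.16, limma adjusted p = 0.0020).

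Gstm2 was at 13206 and 10966 in the WT pair and 5058 and 5588 in the KO pair, without overlap, and fell by 1.18 (SE 0.12, limma adjusted p = 0.0034). Gstm1, the most abundant mu gene per kilobase, was at 19279 and 17889 in the WT pair and 16981 and 18013 in the KO pair. These groups overlapped (-0.09, SE 0.094, limma adjusted p = 0.488). Of its 50-base stretches 18.9% occur elsewhere, mainly in Gstm2-ps1. Gstm4, at the end of the cluster, was at 1587 and 1668 against 1472 and 1547 (-0.11, SE 0.068, limma adjusted p = 0.251). At the other end, Gstm5 was at 1464 and 1397 against 931 and 878 and fell by 0.66 (SE 0.073, limma adjusted p = 0.0040). An antisense gene, 4933431E20Rik, overlaps its exons, and the labels do not state how strand was handled, so some reads may be of that gene. The call of Gstm5 was lost without WT replicate 1 (adjusted p = 0.0522) or WT replicate 2 (0.0576). Gstm3 was at 5.09 and 3.72 in WT and at 0 in KO, and was not tested. Mu genes of the same cluster thus differed by very different amounts, from -4.69 for Gstm7 to -0.09 for Gstm1.

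**Figure D3:**
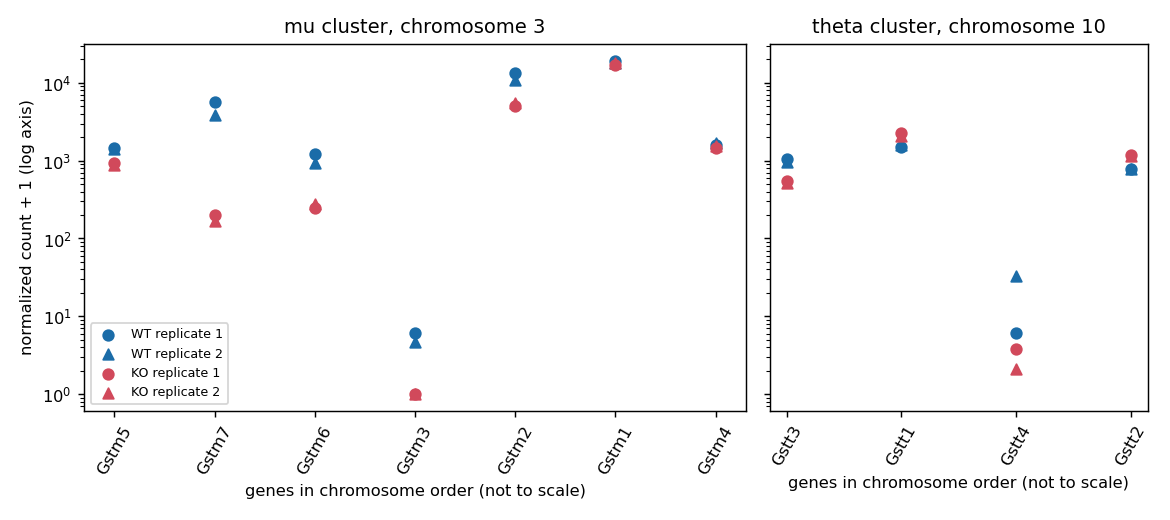
Normalized count + 1 (log axis) of the mu genes on chromosome 3 and the theta genes on chromosome 10, in chromosome order and not to scale, with WT in blue, KO in red, replicate 1 as circles and replicate 2 as triangles. Gstm7 and Gstm6 show wide gaps between WT and KO, whereas Gstm1 and Gstm4 show almost none, and Gstt3 is lower in KO beside Gstt1, which is higher.

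The theta transferases, which act on small halogenated compounds, moved in both directions within 1 cluster on chromosome 10. Gstt1 was at 1513 and 1593 in the WT pair and 2253 and 2099 in the KO pair, and rose by 0.49 (SE 0.072, limma adjusted p = 0.0084). Gstt2 was at 778 and 773 against 1185 and 1148, and rose by 0.59 (SE 0.068, limma adjusted p = 0.0045). Gstt3, 2.4 kb from Gstt1, was at 1040 and 972 in the WT pair and 547 and 520 in the KO pair, and fell by 0.91 (SE 0.083, limma adjusted p = 0.0026). Another gene model on the same strand, Gm20441, shares 12.2% of its 50-base stretches. None of these 3 groups overlapped. With WT replicate 2 left out, the adjusted p was 0.0714 for Gstt1, 0.0607 for Gstt2 and 0.0504 for Gstt3. With WT replicate 1 left out, that of Gstt1 was 0.0705. Gstt4 was low, at 5.09 and 31.6 in the WT pair and 2.81 and 1.12 in the KO pair, and did not pass (-2.31, SE 0.97, limma adjusted p = 0.119). Like Gpx5 it was higher in WT replicate 2, by 6.21-fold.

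Gstz1 (chromosome 12, 87147165 to 87164723), the zeta enzyme that isomerises maleylacetoacetate in tyrosine breakdown, was among the most abundant members. It was at 15063 and 9046 in the WT pair and 26857 and 29872 in the KO pair, with no overlap but a wide gap between the WT libraries. It rose by 1.28 (SE 0.27, limma adjusted p = 0.0208), and the call was lost without WT replicate 2 (0.91, adjusted p = 0.0679), without KO replicate 1 (0.0604) and without KO replicate 2 (0.0776). Pomt2 and Gm6566 on the opposite strand overlap its exons, so its count is uncertain in the same way. The kappa enzyme Gstk1 was at 1239 and 1103 against 1684 and 1658, and rose by 0.51 (SE 0.083, limma adjusted p = 0.0105, or 0.0668 without WT replicate 2).

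Of the omega transferases, which reduce dehydroascorbate and arsenic compounds, the abundant member rose. Gsto1 was at 1012 and 761 in the WT pair and 1896 and 2853 in the KO pair (1.41, SE 0.25, limma adjusted p = 0.0136). The call was lost when WT replicate 1 was left out (1.61, adjusted p = 0.0824) and when WT replicate 2 was (1.20, adjusted p = 0.135). Gsto2, 0.743 kb downstream, was at 72.3 and 110 in the WT pair and 85.3 and 64.7 in the KO pair, and the groups overlapped (-0.26, SE 0.30, limma adjusted p = 0.513). The pi gene Gstp1 was at 2058 and 2079 in the WT pair and 1811 and 1577 in the KO pair. It did not pass (-0.29, SE 0.089, limma adjusted p = 0.0562), except without KO replicate 1 (-0.39, adjusted p = 0.0371). Its adjacent copy Gstp2 was at 27.5 and 15.8 against 55.3 and 58.0 and passed at 1.396 (SE 0.36, limma adjusted p = 0.0354). That call was lost with DESeq2 (adjusted p = 0.052), with the replicate block (0.065) and without any 1 of the 4 libraries (0.0512 to 0.119). Of the 50-base stretches of Gstp2 49.1% occur in Gstp1, so the split of reads between them is uncertain.

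All 3 microsomal transferases rose, where 22.4% of all tested genes did. Mgst1 (chromosome 6, 138140316 to 138156755), a transferase and peroxidase of the endoplasmic reticulum and outer mitochondrial membrane, was at 14711 and 9982 in the WT pair and 29346 and 30975 in the KO pair. Both KO libraries were above both WT libraries, and the log2 fold change was 1.31 (SE 0.21, limma adjusted p = 0.01003). Mgst3 was at 1998 and 2016 in the WT pair and 4878 and 6032 in the KO pair, and rose by 1.43 (SE 0.12, limma adjusted p = 0.0021). Mgst2, which can make leukotriene C4, was lower in level, at 180 and 128 against 398 and 517, and rose by 1.57 (SE 0.24, limma adjusted p = 0.0086). With WT replicate 2 left out, the adjusted p was 0.0525 for Mgst1, 0.0868 for Mgst2 and 0.0592 for Mgst3. With WT replicate 1 left out, that of Mgst2 was 0.0531. The 3 fold changes lie between the macrophage median of 1.04 and the adipocyte median of 1.68.

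**Figure D4:**
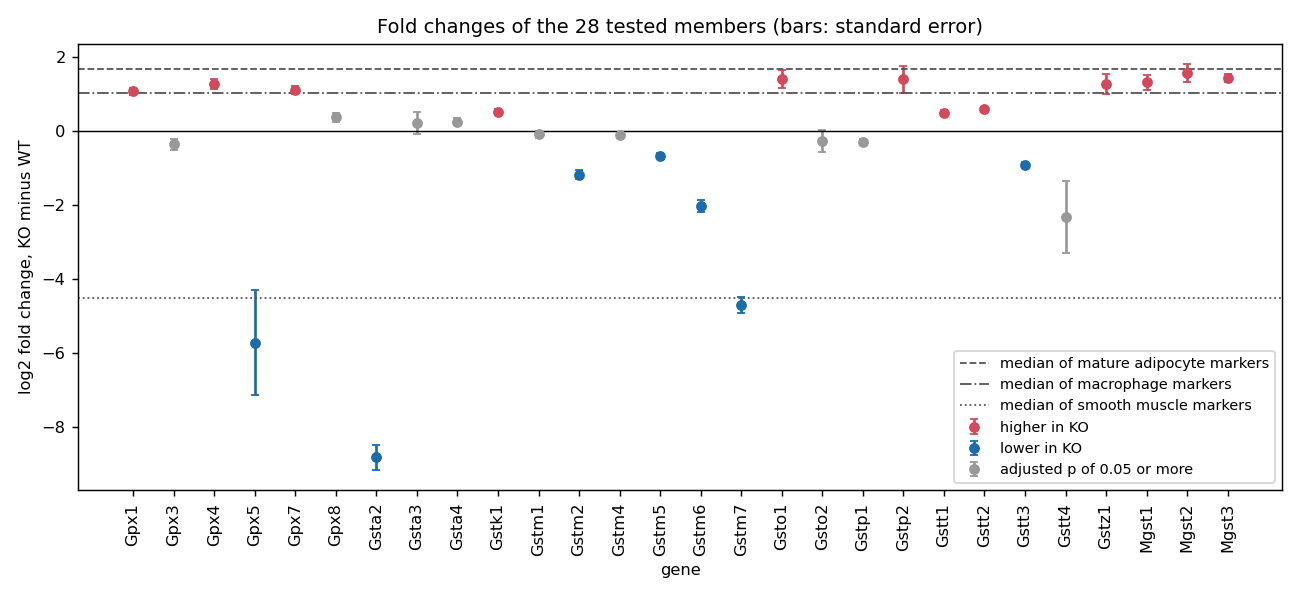
Log2 fold change (KO minus WT) of the 28 tested members with its standard error, red where higher, blue where lower and grey where the adjusted p was 0.05 or more. Horizontal lines mark the medians of the mature adipocyte (1.68), macrophage (1.04) and smooth muscle (-4.51) markers. The medians of the male tract (-8.20) and general epithelium (-7.66) markers are not drawn. The members that rose lie between 0.49 and 1.57, and those that fell between -0.66 and -8.81.

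Relatives by fold, from a list of 12 other proteins of the transferase and MAPEG folds, rose in 5 and fell in 3. Of all tested genes 22.4% rose and 24.4% fell. Ltc4s, the leukotriene C4 synthase, was at 709 and 485 in the WT pair and 1924 and 2030 in the KO pair and rose by 1.75 (SE 0.20, limma adjusted p = 0.0042). Alox5ap, which presents arachidonic acid to 5-lipoxygenase, rose by 1.17 (SE 0.084, limma adjusted p = 0.0016), and Clic5, an intracellular chloride channel protein, rose by 1.38 (SE 0.15, limma adjusted p = 0.0039, or 0.0504 and 0.0712 with WT replicate 1 or 2 left out). Ptges, the inducible microsomal prostaglandin E synthase, went the other way, at 13091 and 18787 in the WT pair and 2751 and 2875 in the KO pair, and fell by 2.48 (SE 0.19, limma adjusted p = 0.0018). Members of the MAPEG family were therefore not uniform in direction.

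Genes that supply glutathione were also split. Of 25 genes of glutathione synthesis, recycling and breakdown 9 rose and 6 fell, with a median of 0.13. The shares over all tested genes were 22.4% higher and 24.4% lower. Slc7a11, the cystine importer, was at 371 and 271 in the WT pair and 20.6 and 22.3 in the KO pair and fell by 3.82 (SE 0.24, limma adjusted p = 0.0013). Cth, which makes cysteine from cystathionine, fell by 1.86 (SE 0.12, limma adjusted p = 0.0014), and Gclc, the catalytic subunit of the enzyme that commits to glutathione synthesis, fell by 0.78 (SE 0.070, limma adjusted p = 0.0026). G6pdx, which supplies the NADPH that glutathione reductase uses, rose by 1.18 (SE 0.093, limma adjusted p = 0.0019), from 5752 and 5070 to 11895 and 12592. The other called genes of the list were named after their values were seen. Those that rose were Gss, the second enzyme of synthesis, at 0.69, and the peptidases Dpep1, Dpep2 and Anpep at 0.46, 1.15 and 0.99. Also higher were the gamma-glutamyl hydrolysing gene Ggt5 at 0.90, and Chac1, Esd and Hagh at 0.70, 0.33 and 0.32. Those that fell were Gclm, the regulatory partner of Gclc, at -0.98, and the other called gamma-glutamyl hydrolysing genes, Ggt1 and Ggt7, at -6.20 and -1.16. Of these 11 genes, all but Gclm lost their call when WT replicate 1 or WT replicate 2 was left out.

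The transcription factor NRF2 (Nfe2l2) switches on many transferase genes when electrophiles accumulate, and of 29 of its regulators and targets 11 rose and 8 fell, with a median of 0.19. Nqo1, a quinone reductase, was at 864 and 726 in the WT pair and 218 and 286 in the KO pair and fell by 1.66 (SE 0.18, limma adjusted p = 0.0038, or 0.0628 and 0.0647 with WT replicate 1 or 2 left out). Slc7a11, Gclc and G6pdx are also on that list. Of 24 genes of other peroxide and superoxide defences 10 rose and 3 fell, with a median of 0.15. Cat, the peroxisomal catalase, was at 16197 and 12078 in the WT pair and 39272 and 47841 in the KO pair and rose by 1.63 (SE 0.20, limma adjusted p = 0.0049, or 0.0659 without WT replicate 2). Srxn1, which repairs oxidised peroxiredoxins, fell by 1.20 (SE 0.13, limma adjusted p = 0.0039), and Prdx4, a peroxiredoxin of the secretory pathway, rose by 0.58 (SE 0.074, limma adjusted p = 0.0058, or 0.0662 without WT replicate 2). Glrx5, a mitochondrial glutaredoxin, rose by 1.08 (SE 0.15, limma adjusted p = 0.0074, or 0.0656 and 0.0978 with WT replicate 1 or 2 left out). Of 11 genes of selenocysteine synthesis and selenium supply, on which Gpx1 to Gpx4 depend, 2 rose and 2 fell, with a median of -0.16. Sepp1, the secreted selenium carrier, was at 27006 and 24137 in the WT pair and 61021 and 60604 in the KO pair and rose by 1.25 (SE 0.13, limma adjusted p = 0.0033, or 0.0651 without WT replicate 2). Its receptor gene Lrp8 fell by 2.25 (SE 0.27, limma adjusted p = 0.0051, or 0.0661 and 0.0881 with WT replicate 1 or 2 left out). With WT replicate 1 or WT replicate 2 left out, fewer genes passed in limma in each of these lists and among all tested genes. Those fits have fewer degrees of freedom. The counts with all libraries stand beside the 22.4% higher and 24.4% lower among all tested genes.

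**Figure D5:**
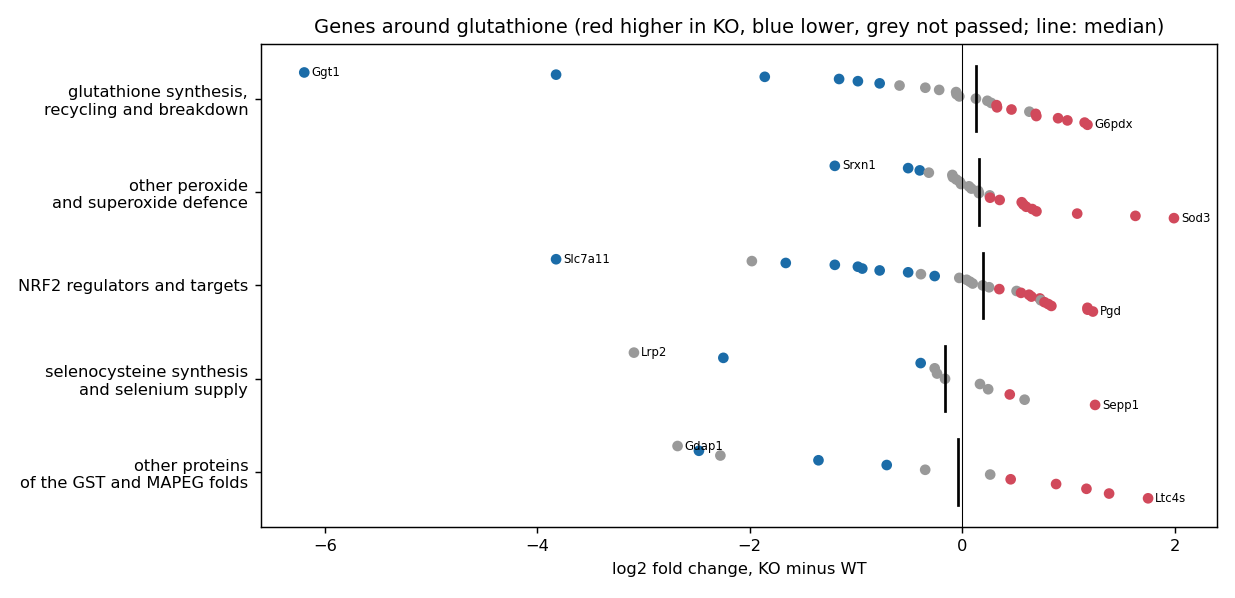
Log2 fold change (KO minus WT) of each tested gene in 5 lists around glutathione, red where higher in KO, blue where lower and grey where not passed, with a black line at each list's median and the lowest and highest gene named, and genes spread vertically by rank only. Each list holds genes on both sides of 0, and the medians lie between -0.16 and 0.19.

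Promoter windows of 250 bases before to 50 after the annotated starts were available for 30 of the 32 members (RefSeq, GRCm38.p6). Gsta4 and Gstt2 had none. The windows were searched on both strands for the core of the antioxidant response element that NRF2 binds, TGACNNNGC. Sequence outside them was not searched, so a member without a match may hold the core elsewhere. The core occurred in 4 of 42 member windows (9.52%) and in 12.4% of all 32851 windows. The 4 matches are shown, since they include the mu genes Gstm7 and Gstm5 that fell, Mgst1 that rose and Gsta3 that did not pass. Each is given on the strand of its gene with the match in capitals, and that of Mgst1 is the reverse complement of the core.
Gstm7 (chr3:107931725-107931753, minus strand): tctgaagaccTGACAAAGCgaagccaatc
Gstm5 (chr3:107895802-107895830, plus strand): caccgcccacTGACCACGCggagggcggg
Mgst1 (chr6:138140461-138140489, plus strand): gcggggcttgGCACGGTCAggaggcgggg
Gsta3 (chr1:21240454-21240482, plus strand): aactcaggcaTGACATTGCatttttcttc
The steroid receptor half-site AGAACA occurred in 7 of 42 member windows (16.7%) against 19% of all windows, in Gpx3, Gpx6, Gstm1, Gstm6, Mgst1 and Mgst3. A match is a run of letters and not evidence of binding.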

How the data were processed

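RNA was measured in 2 WT and 2 KO libraries. Per the labels' protocols, Trizol and column purification preceded TruSeq library preparation, a kit whose standard form keeps no strand information. The submitters' processing notes name CASAVA (1.8), TopHat2 (2.0.10), HTSeq (0.5.3), DESeq2 (1.4.5) and GRCm38. How strand and shared reads were handled is not stated in the sources used here. The authors deposited a signal for each gene, its normalized count (reads over a library size factor). Their deposited comparison table supplied log2 fold changes and adjusted p-values. Whole reads could be recovered for 100% of values (tolerance 0.01). Replicates of a group differed by more than sampling noise, with chi-square per degree of freedom of 52.3 in WT and 36.9 in KO.

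The test was limma (3.58.1, R 4.3.3) with an intensity trend, applied to log2(normalized count + 1) of the 16710 genes whose mean was at least 10, with Benjamini-Hochberg adjustment over all of them. The pseudocount understates fold changes of low genes. The procedure was run on simulated counts with 200 changed genes, far fewer than were called here. That run does not measure its error rates in these data. Other settings tried were a pseudocount of 0.5 or 5, no filter, a minimum mean of 50, upper-quartile or TMM scaling, robust moderation, edgeR (4.0.16) and DESeq2 (1.42.0) on whole reads, a block for replicate number, and leaving out each library. Floors of 3 reads reflect counting error alone, as PCR copies were not marked.

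Members and lists were chosen with earlier results of these data known. Genes named were every member, Nck2, up to 4 genes of each pathway list by smallest p and up to 3 of each marker list by highest mean, of which some are printed. Other genes were named after their values were seen, including those of the male tract compared between WT libraries. Positions and transcripts came from GENCODE M21, matched by gene ID for all 32 members, and sequences were aligned with Biopython 1.88.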

Additional observations from a re-analysis of the deposited data

How the results depend on the processing

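With 2 libraries per group, each fit that leaves out a library has a lone library in a group, which is assumed to vary like the others, and has fewer degrees of freedom. Over these fits, genes higher in KO ran from 650 to 2849 (3735 with all libraries) and genes lower from 1163 to 3477 (4074). Members ran from 1 to 11 higher (12) and from 4 to 7 lower (7). The lowest count came without WT replicate 2 in each case. In that fit 13 members lost their call and Gpx5 was untested. Leaving out libraries moved Gsta3 between -0.21 and 0.63, Gsto2 between -0.56 and 0.038, and the fibroblast gene Dcn between -0.17 and 0.22. Gsta3 and Gsto2 changed sign without WT replicate 2 and Dcn without KO replicate 1, and no other member changed sign in any alternative. Upper-quartile and TMM scaling moved the median of all genes by 0.016 and -0.0060 and changed no member's call. With edgeR, 3503 genes were higher and 4070 lower. With the replicate block the numbers were 2737 and 3339, and among members 11 and 7, where the lost call was Gstp2. Deviations of libraries with the same replicate number correlated at -0.0090 across genes. A correlation from so few libraries cannot exclude a pairing. Gpx2, Gpx6, Gsta1 and Gstm3 were under the filter of the main fit. With no filter, 12 members were higher and 9 lower.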
